A study of Mus musculus with 18 samples.

Results

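Bone marrow-derived macrophages (BMDMs) of WT mice were compared with those of IRF5 KO mice before any LPS was given. The comparison took the 3 WT unstimulated and the 3 IRF5 KO unstimulated libraries, chosen by their genotype and time labels, which are 6 of the 18 RNA-seq libraries of the series. The other 12 libraries, from both genotypes after 2 h of LPS at 100 ng/ml with either DMSO or the kinase inhibitor defactinib (3.5 μM from 1 h before), entered the shared fit, where they add to the estimate of spread, and served to look up the resting differences in other libraries. All cells were grown from bone marrow for 8 days with recombinant GM-CSF, without M-CSF, so both genotypes share this culture. The labels give DMSO for the unstimulated libraries, in their titles too, while the column names of the count table mark them as untreated, so whether vehicle was added is not settled. The study's methods name male C57BL/6J mice and, for its experiments in general, n as biological replicates such as mice or cells. Neither is tied to these cultures, and the strain and sex of the IRF5 KO donors, the structure of the Irf5 allele, and whether each library came from its own mouse are not given in the sources used here. The p-values measure the spread between these libraries, which may be technical in part. Of the 50600 genes in the deposited table, 15663 passed the filter on low counts and were tested.

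IRF5 is a member of the interferon regulatory factor family of transcription factors. It is held in the cytoplasm of resting myeloid cells, is activated downstream of Toll-like receptors through MyD88, and is known for driving genes of inflammatory cytokines. GM-CSF raises IRF5 in macrophages, and it also drives PPARγ, which sets the lipid-handling program of alveolar macrophages. Cultures of bone marrow in GM-CSF are adherent myeloid cells with features of macrophages and of monocyte-derived dendritic cells.

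Counted read pairs per unstimulated library ranged from 42214839 to 55262814. Levels are given as CPM, counts scaled to a common library size by edgeR's TMM method, and log2 fold changes with standard errors come from its quasi-likelihood test. No pair of libraries differed by sampling noise alone, for which a chi-square of 1 per gene would be found. Within WT the value was 3.82 between replicates 1 and 2 and 52.4 to 55.2 between replicate 3 and these. Within IRF5 KO it was 7.09 between replicates 1 and 3 and 33.1 to 36.8 for replicate 2, whereas pairs of different genotype were at 140 to 206.

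Irf5 (chromosome 6 of mm10, 29526625 to 29541871, plus strand) was counted at 587, 606 and 650.3 CPM in the WT libraries and at 335, 397 and 364 CPM in the IRF5 KO libraries. The groups did not overlap, yet the transcript was abundant in the library group labelled IRF5 KO. The log2 fold change of WT over IRF5 KO was 0.75 (standard error 0.16, edgeR adjusted p = 0.00492), below the threshold of 2-fold. Since the table holds 1 count per gene, it cannot tell which exons are missing in the knockout, and this value does not check the labels. Xist and Tsix, which mark cells with 2 X chromosomes, were not counted in any of the 6 libraries, and the Y-linked Ddx3y was at 85.5 ± 6.69 CPM in WT and 64.9 ± 2.099 CPM in IRF5 KO cells (SD, n = 3). Dock2, a guanine nucleotide exchange factor for Rac whose copy of an exon block differs between mouse substrains, was at 366, 374 and 423 CPM in WT and 279.5, 287 and 291 CPM in IRF5 KO libraries, a log2 fold change of 0.44 (standard error 0.15, edgeR adjusted p = 0.0644). Nnt, the mitochondrial transhydrogenase that is truncated in C57BL/6J mice, was at 11.4, 10.4 and 9.98 CPM in WT and 15.6, 14.6 and 16.7 CPM in IRF5 KO libraries (log2 fold change -0.56, standard error 0.13, edgeR adjusted p = 0.00877), and was not called. No gene of the sex chromosome list was called. Of the 7 tested substrain-variable genes 1 was called, Naip1, an inflammasome receptor, at 0.431, 0.846 and 1.11 CPM in WT and 2.62, 1.65 and 2.498 CPM in IRF5 KO, and this call was not made without IRF5 KO unstimulated replicate 1, IRF5 KO unstimulated replicate 3, WT unstimulated replicate 1 or WT unstimulated replicate 2 (edgeR adjusted p = 0.106, 0.0931, 0.149 and 0.0908). Whether donors differed in background was not tested.

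With the false discovery rate held under 0.05 and more than 2-fold change required, 1145 genes differed between the genotypes before LPS, 595 higher in WT and 550 higher in IRF5 KO. This is 7.31% of the tested genes in either direction, 3.8% higher in WT and 3.51% higher in IRF5 KO, and these shares are the background for the lists that follow. By the false discovery rate alone, with no fold change threshold, 2396 genes passed (15.3%), 7.93% of the tested genes higher in WT and 7.37% higher in IRF5 KO. The libraries of the genotypes did not overlap in 51.4% of all tested genes and in 1141 of the 1145 called genes, so that being apart adds little to a call. The median size of the called log2 fold changes was 1.73. Beyond 4-fold there were 233 genes higher in WT and 209 higher in IRF5 KO, and beyond 16-fold 39 and 31. Levels were often low, since 277 of the called genes were under 1 CPM in both genotypes, while 403 were over 10 CPM in at least one of them. By their annotated type 1017 of the called genes are protein-coding. On log2 values the median of all tested genes was -0.01, so that the distribution was centred.

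**Figure D1:**
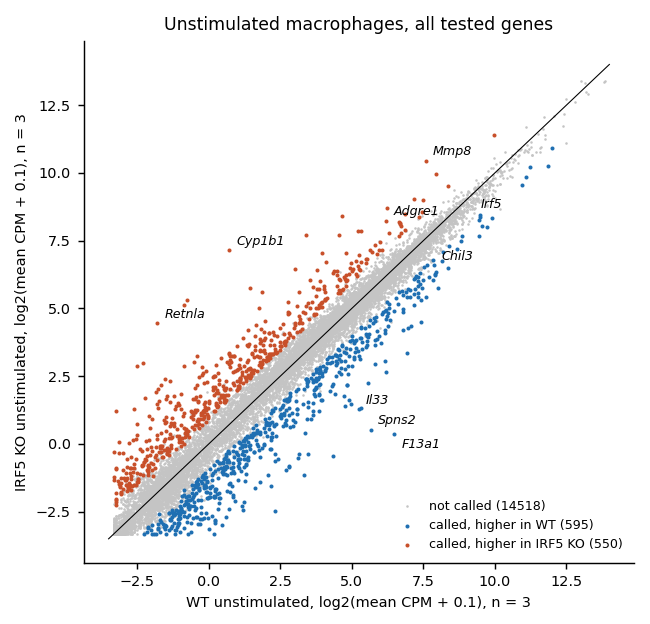
Mean level of every tested gene in WT unstimulated (x axis) and IRF5 KO unstimulated (y axis) macrophages, as log2(mean CPM + 0.1) over 3 libraries each, with called genes coloured. Grey genes lie along the diagonal, F13a1, Spns2 and Il33 stand far below it, and Cyp1b1 and Retnla far above it.

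The largest differences among well-expressed genes were looked for where the log2 CPM averaged 3 or more and the groups were apart. F13a1, the A chain of coagulation factor XIII and a marker of monocytes, led those higher in WT. It was counted at 90.8, 88.9 and 87.9 CPM in the WT libraries and at 1.17, 1.58 and 0.826 CPM in the IRF5 KO libraries. Every WT library was thus above every IRF5 KO library by a wide margin (log2 fold change 6.22, standard error 0.58, edgeR adjusted p = 3.64e-06). Spns2, a transporter that exports sphingosine 1-phosphate, was at 45.2, 45.2 and 62.7 CPM in WT and 1.14, 1.597 and 1.298 CPM in IRF5 KO (log2 fold change 5.25, standard error 0.28, edgeR adjusted p = 1.89e-08). WT replicate 3 was the highest of its group for Spns2, and it was so too for Il33 and Tnc. Il33, an alarmin cytokine of the IL-1 family, was at 32.99, 31.8 and 48.1 CPM in WT against 1.87, 2.98 and 2.16 CPM in IRF5 KO (log2 fold change 4.01, standard error 0.31, edgeR adjusted p = 3.93e-07). Tnc, the matrix glycoprotein tenascin C, was at 99.7, 104 and 159 CPM against 9.85, 8.31 and 11.9 CPM (log2 fold change 3.59, standard error 0.29, edgeR adjusted p = 6.82e-07).

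Slc27a3, an acyl-CoA synthetase of the fatty acid transport family, was also at the WT end of this set, at 72.6 ± 5.85 CPM in WT and 6.26 ± 0.596 CPM in IRF5 KO (SD, n = 3; log2 fold change 3.53, standard error 0.22, edgeR adjusted p = 6.50e-08). Slc6a4, the serotonin transporter, was at 47.3 ± 1.81 CPM and 4.63 ± 0.735 CPM (SD, n = 3; log2 fold change 3.35, standard error 0.25, edgeR adjusted p = 3.07e-07). F11r, the junctional adhesion molecule A, was at 31.2 ± 0.880 CPM and 2.68 ± 0.640 CPM (SD, n = 3; log2 fold change 3.54, standard error 0.21, edgeR adjusted p = 5.37e-08). In all of these the SD was small beside the gap between the genotypes, which follows in part from taking only called genes whose groups were apart. Eef1a2, a translation elongation factor typical of neurons and muscle, was at 39.6 ± 3.69 CPM and 2.38 ± 0.326 CPM (SD, n = 3), with a log2 fold change of 4.06. Tmem151a, Clec2l, Ear2 and the transcription factor Sall2 complete the set, with log2 fold changes of 3.42, 3.34, 3.11 and 2.99. Ear2 belongs to a family of near-identical ribonuclease genes, and since only uniquely mapped reads were counted, its level is uncertain.

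Cyp1b1, a cytochrome P450 that oxidises xenobiotics, oestrogens and retinoids, led the genes higher in IRF5 KO cells under the same limits on level and overlap. Its level was 1.48, 1.35 and 1.75 CPM in the WT libraries and 155, 119 and 152 CPM in the IRF5 KO libraries, higher in IRF5 KO by 6.54 on the log2 scale (standard error 0.62, edgeR adjusted p = 4.07e-06). The lowest IRF5 KO library, replicate 2, still stood far above all WT libraries. Hic1, a zinc finger repressor, was at 2.15, 2.59 and 3.01 CPM in WT and 51.8, 52.01 and 58.6 CPM in IRF5 KO (log2 difference 4.39, standard error 0.54, edgeR adjusted p = 4.54e-05). Asb2, the substrate receptor of a ubiquitin ligase that degrades filamins, was at 10.97, 10.7 and 9.98 CPM in WT and 179, 249 and 203 CPM in IRF5 KO (log2 difference 4.32, standard error 0.38, edgeR adjusted p = 1.62e-06). Both genes were low in every WT library and well expressed in every IRF5 KO library.

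Ifitm1 and Ifitm3, membrane proteins that restrict the entry of viruses, stood side by side on chromosome 7 and were both higher in IRF5 KO. Ifitm1 was at 28.2, 27.6 and 19.9 CPM in WT and 321, 399 and 307 CPM in IRF5 KO (log2 difference 3.76, standard error 0.40, edgeR adjusted p = 1.25e-05). Ifitm3 was at 21.6, 22.1 and 26.3 CPM in WT and 207, 227 and 194 CPM in IRF5 KO (log2 difference 3.16, standard error 0.65, edgeR adjusted p = 0.00338). These genes are close relatives, and reads that fit several copies were not counted. Serpinb2, an inhibitor of plasminogen activators, was at 15.5 ± 1.81 CPM in WT and 133 ± 18.6 CPM in IRF5 KO (SD, n = 3; log2 difference 3.11, standard error 0.48, edgeR adjusted p = 3.53e-04). Sorl1, a sorting receptor of the endosome, was at 13.5 ± 1.97 CPM and 85.2 ± 4.94 CPM (SD, n = 3; log2 difference 2.65, standard error 0.15, edgeR adjusted p = 3.72e-08). Cd38, an ectoenzyme that consumes NAD, was at 16.3, 16.03 and 18.3 CPM in WT and 120.3, 81.01 and 116 CPM in IRF5 KO libraries (log2 difference 2.65, standard error 0.34, edgeR adjusted p = 6.82e-05), with IRF5 KO replicate 2 below the other IRF5 KO libraries. The remaining members of this set, C5ar1, Mmp9, Gata2 and Mmp8, are described with their families below.

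**Figure D2:**
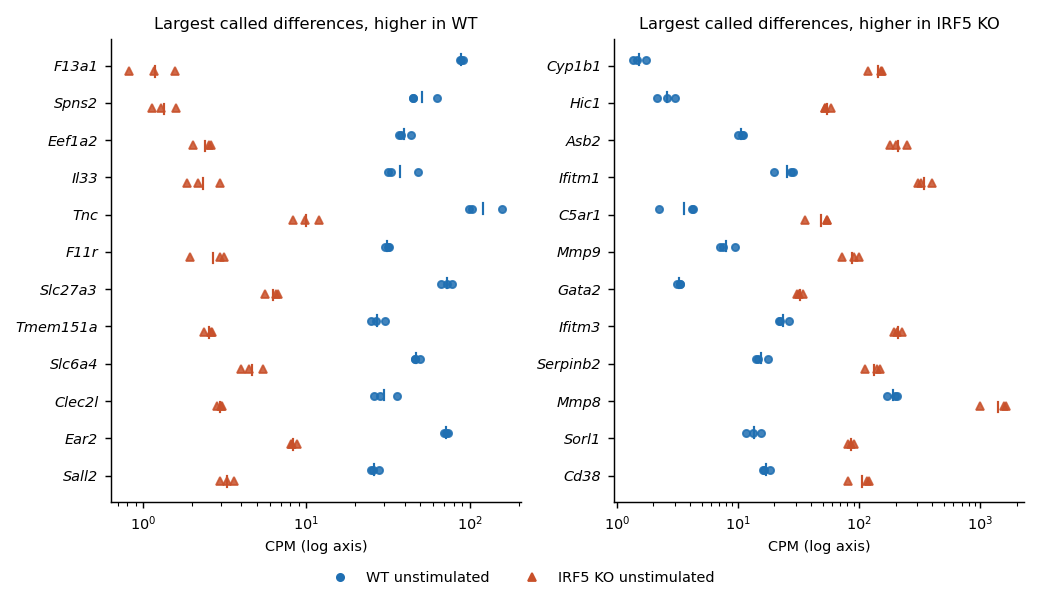
Level in CPM (log axis) of the 12 genes with the largest difference in each direction where the log2 CPM averaged 3 or more and the groups were apart, in each WT unstimulated (circles) and IRF5 KO unstimulated (triangles) library, with a vertical line at the mean of 3. The symbols of the genotypes are apart in all 24 genes because only such genes were taken, and the gaps between the means differ, with F13a1 at 89.2 against 1.19 CPM on average and Cyp1b1 at 1.53 against 142 CPM.

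Several genes that GM-CSF and PPARγ maintain in alveolar macrophages were lower without IRF5. Of the 14 genes on that list, 7 were called higher in WT and 0 higher in IRF5 KO, with a median log2 fold change of 1.09, against -0.01 over all tested genes. All 14 had a positive fold change, and 11 were below the false discovery rate of 0.05, against 7.93% of all tested genes in this direction. Pparg itself, the nuclear receptor, was at 23.9, 22.5 and 19.3 CPM in WT and 7.32, 9.62 and 8.005 CPM in IRF5 KO (log2 fold change 1.40, standard error 0.17, edgeR adjusted p = 2.64e-05). Marco, a scavenger receptor for bacteria and particles, was at 67.5, 67.9 and 77.3 CPM in WT and 19.6, 13.6 and 18.1 CPM in IRF5 KO (log2 fold change 2.05, standard error 0.14, edgeR adjusted p = 1.91e-07). Fabp4, a fatty acid binding protein and a textbook PPARγ target, was at 12.4, 12.04 and 11.01 CPM and 1.99, 1.405 and 1.99 CPM (log2 fold change 2.71, standard error 0.35, edgeR adjusted p = 6.11e-05). In each of these genes the WT libraries lay close together and above all IRF5 KO libraries.

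Plet1, a surface protein of alveolar macrophages and dendritic cells, was the most abundant called gene of the list, at 3595, 3582 and 3956 CPM in WT and 1260.3, 1190.0 and 1242 CPM in IRF5 KO (log2 fold change 1.59, standard error 0.15, edgeR adjusted p = 2.55e-06). Chil3, the chitinase-like lectin Ym1, was at 228, 216 and 266 CPM in WT and 108, 79.99 and 101 CPM in IRF5 KO (log2 fold change 1.30, standard error 0.18, edgeR adjusted p = 1.18e-04). Ear2, given above, and Krt79 were also called. Krt79, a keratin, was near the limit of detection at 0.206, 0.152 and 0.371 CPM in WT and 0.0156, 0.0385 and 0.0197 CPM in IRF5 KO. Siglecf, the sialic acid receptor by which alveolar macrophages are recognised, was at 40.2 ± 2.02 CPM in WT and 24.8 ± 2.78 CPM in IRF5 KO (SD, n = 3; log2 fold change 0.70, standard error 0.14, edgeR adjusted p = 0.00318), below the fold change threshold. Itgax, which encodes CD11c, was high in both genotypes at 2329 ± 86.4 and 1891 ± 71.9 CPM (SD, n = 3) and was not called (log2 fold change 0.30, standard error 0.11, edgeR adjusted p = 0.0966). Summed per kilobase over the list, the level was 3701 to 3971 CPM per kb in the WT libraries and 1756 to 1957 CPM per kb in the IRF5 KO libraries. In bulk RNA, fewer cells of a type and less RNA per cell cannot be told apart, here and in all results that follow.

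**Figure D3:**
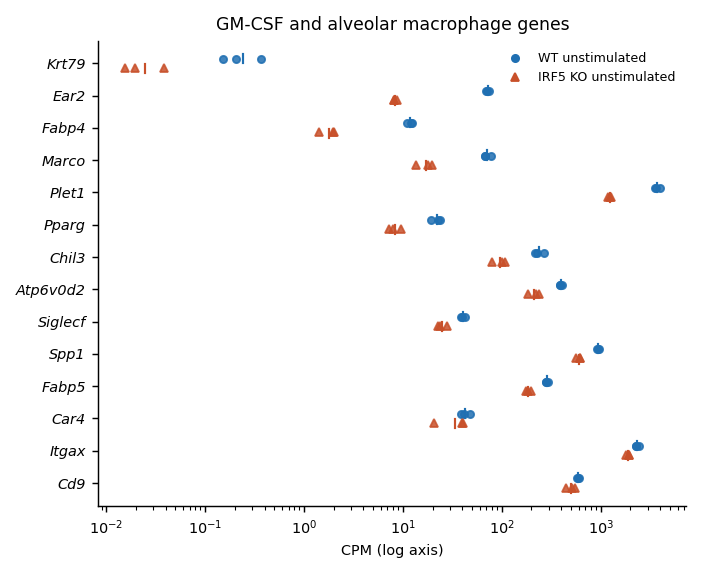
Level in CPM (log axis) of the 14 GM-CSF and alveolar macrophage genes in each WT unstimulated (circles) and IRF5 KO unstimulated (triangles) library, with a vertical line at the mean of 3 and genes ordered by fold change. The WT mean is to the right in all 14 genes, most so in Krt79, Ear2 and Fabp4, and closest in Cd9 and Itgax.

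General macrophage genes were present in both genotypes. Lyz2, lysozyme, was at 8257 ± 188 CPM in WT and 10726 ± 2078 CPM in IRF5 KO (SD, n = 3), and Lgals3, galectin-3, at 5353 ± 250.2 and 3415 ± 235 CPM (SD, n = 3), neither called. Of the 12 genes of this list, only Adgre1 was called. Adgre1, which encodes the macrophage antigen F4/80, was at 75.2, 74.3 and 70.3 CPM in WT and 294, 320.2 and 291 CPM in IRF5 KO, higher in IRF5 KO by 2.04 on the log2 scale (standard error 0.29, edgeR adjusted p = 1.65e-04). Csf1r and Cd68 had log2 fold changes of -0.31 and 0.04 and were not called. The summed level of the list spanned 9667 to 13266 CPM per kb in IRF5 KO libraries, around the WT range of 11448 to 11696.

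Monocyte genes went in both directions. Of 12 tested, 2 were higher in WT (F13a1, known from earlier results, and the integrin Itga4, log2 fold change 1.26) and 3 higher in IRF5 KO. Hp and Fn1 were among the latter. Hp, haptoglobin, was at 37.3, 40.2 and 41.5 CPM in WT and 249, 189.6 and 257 CPM in IRF5 KO (log2 difference 2.55, standard error 0.20, edgeR adjusted p = 4.88e-07). Fn1, fibronectin, was at 222, 240.0 and 276 CPM in WT and 1159, 617 and 1239 CPM in IRF5 KO (log2 difference 2.03, standard error 0.45, edgeR adjusted p = 0.00544). IRF5 KO replicate 2 was the lowest of its group for both, though still above all WT libraries. Ccr2 and Ly6c2, which define classical monocytes, had log2 fold changes of 0.54 and -0.84 and were not called.

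Genes of tissue-resident and M-CSF grown macrophages were likewise split, 3 of 12 higher in WT and 2 higher in IRF5 KO. Mrc1, the mannose receptor, was at 180.1, 183 and 179 CPM in WT and 75.3, 51.7 and 70.8 CPM in IRF5 KO (log2 fold change 1.46, standard error 0.23, edgeR adjusted p = 4.50e-04). Gas6, a ligand of the TAM receptors, had a log2 fold change of 1.23, a call that was not made without any 1 of the 6 unstimulated libraries (edgeR adjusted p = 0.0610 to 0.0983). Lyve1 was low at 0.730, 0.474 and 0.907 CPM in WT and 0.0467, 0.0385 and 0 CPM in IRF5 KO. Stab1, a scavenger receptor of M-CSF dependent macrophages, was at 13.3, 16.4 and 14.5 CPM in WT and 67.1, 51.7 and 75.5 CPM in IRF5 KO (log2 difference 2.14, standard error 0.22, edgeR adjusted p = 5.88e-06). The transcription factor Maf was at 2.696, 3.47 and 3.897 CPM in WT and 15.8, 11.4 and 16.8 CPM in IRF5 KO (log2 difference 2.13, standard error 0.47, edgeR adjusted p = 0.00522). Its direction was thus opposite to that of Mrc1 on the same list.

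Of the 12 dendritic cell genes tested, 3 were higher in IRF5 KO and none higher in WT. Kmo, an enzyme of the kynurenine pathway, was at 29.1, 32.96 and 29.6 CPM in WT and 82.04, 113 and 77.5 CPM in IRF5 KO (log2 difference 1.57, standard error 0.14, edgeR adjusted p = 1.78e-06). Dpp4, the peptidase CD26, averaged 6.65 ± 0.588 CPM in WT and was at 24.5, 40.8 and 22.6 CPM in the IRF5 KO libraries (log2 difference 2.14, standard error 0.24, edgeR adjusted p = 1.67e-05). Itgae, the integrin CD103, was at 6.54, 6.99 and 6.56 CPM in WT and 22.5, 37.8 and 22.1 CPM in IRF5 KO (log2 difference 2.04, standard error 0.46, edgeR adjusted p = 0.00702). IRF5 KO replicate 2 was the highest library for all 3 of these genes, while it was the lowest of its group for Hp and Fn1. Flt3 and Zbtb46, which define conventional dendritic cells, had log2 fold changes of -0.13 and 0.79 and were not called. With only the 6 unstimulated libraries Cd209a was added higher in WT (log2 fold change 1.59, edgeR adjusted p = 3.64e-04). The summed level of the list overlapped between genotypes, at 498 to 597 CPM per kb in WT and 499.8 to 577 CPM per kb in IRF5 KO.

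Genes of cell fusion were among those higher in WT. Ocstamp and Dcstamp, membrane proteins needed for fusion into multinucleated cells, were at 228 ± 16.9 and 756 ± 49.1 CPM in WT against 66.6 ± 3.49 and 262 ± 27.1 CPM in IRF5 KO (SD, n = 3). Their log2 fold changes were 1.77 (standard error 0.20, edgeR adjusted p = 1.68e-05) and 1.53 (standard error 0.24, edgeR adjusted p = 3.14e-04). Ctsk, the collagen-degrading cathepsin K, was at 61.4, 60.8 and 70.1 CPM in WT and 15.4, 10.02 and 14.4 CPM in IRF5 KO (log2 fold change 2.27, standard error 0.16, edgeR adjusted p = 1.72e-07). Of 10 genes of this list 3 were higher in WT and 1, Mmp9, higher in IRF5 KO, where Acp5 was added without IRF5 KO unstimulated replicate 2 (log2 difference of 1.04).

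Among 36 lineage transcription factors, 4 were called in each direction. Klf4, a factor of monocyte differentiation, was at 47.02, 50.9 and 47.3 CPM in WT and 16.6, 14.97 and 17.5 CPM in IRF5 KO (log2 fold change 1.57, standard error 0.28, edgeR adjusted p = 0.00117). Nr1h3, the oxysterol receptor LXRα, was at 5.45, 5.16 and 6.02 CPM in WT and 2.38, 1.89 and 2.85 CPM in IRF5 KO (log2 fold change 1.22, standard error 0.18, edgeR adjusted p = 2.55e-04). Pparg, given above, and the near-silent Gata6 were the others, and the Gata6 call was not made without IRF5 KO unstimulated replicate 1, IRF5 KO unstimulated replicate 3 or WT unstimulated replicate 3 (edgeR adjusted p = 0.0670, 0.0574 and 0.0665). Higher in IRF5 KO were Gata2, Maf, Id3 and Spib, an ETS factor related to PU.1 that was at 1.42, 2.01 and 1.22 CPM in WT and 7.65, 13.9 and 8.04 CPM in IRF5 KO (log2 difference 2.66, standard error 0.33, edgeR adjusted p = 4.38e-05). Spi1, which encodes PU.1 itself, was at 459 ± 27.7 CPM in WT and 388 ± 33.3 CPM in IRF5 KO (SD, n = 3) and was not called (log2 fold change 0.24, standard error 0.18, edgeR adjusted p = 0.459). With only the 6 unstimulated libraries, Cebpa and Egr1 were added higher in WT (log2 fold changes 1.06 and 1.58). In that fit Irf8 was added higher in IRF5 KO (log2 difference 1.51).

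Markers of other cell types were looked up because a culture of bone marrow can hold granulocytes, mast cells and progenitors. The 12 tested neutrophil genes all had higher values in IRF5 KO, with a median of -0.67, and 4 were called. The summed level was 164 to 183 CPM per kb in WT and 524 to 787 CPM per kb in IRF5 KO. Mmp8, neutrophil collagenase, made up most of this difference, at 205, 198 and 169 CPM in WT and 1619.5, 1001 and 1563 CPM in IRF5 KO (log2 difference 2.87, standard error 0.25, edgeR adjusted p = 1.47e-06). The other called members were low: Csf3r, the G-CSF receptor, at 3.09, 3.38 and 3.32 CPM in WT and 7.87, 6.45 and 8.06 CPM in IRF5 KO, and Ly6g and Retnlg below 1 CPM in all 6 libraries. Calls of the latter depended on single libraries, that of Ly6g not being made without IRF5 KO unstimulated replicate 1, WT unstimulated replicate 1, WT unstimulated replicate 2 or WT unstimulated replicate 3 (edgeR adjusted p = 0.124, 0.0928, 0.0580 and 0.0571) and that of Retnlg not without IRF5 KO unstimulated replicate 2, IRF5 KO unstimulated replicate 3, WT unstimulated replicate 1 or WT unstimulated replicate 2 (edgeR adjusted p = 0.0747, 0.0838, 0.115 and 0.125). S100a9, an abundant protein of neutrophil cytosol, was at 21.2 ± 4.39 CPM in WT and 26.3 ± 1.89 CPM in IRF5 KO (SD, n = 3) and not called (log2 difference 0.31, standard error 0.19, edgeR adjusted p = 0.323). S100a8 had a log2 fold change of -0.04, and the azurophil granule genes Mpo and Ctsg were too low to be tested. Without WT unstimulated replicate 1, or without replicate 2, 2 genes of this list were called. The part of neutrophils in these values was not tested.

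Gata2, a transcription factor of progenitors and mast cells whose difference was known from earlier results, was at 3.16, 3.35 and 3.299 CPM in WT and 30.8, 34.1 and 31.9 CPM in IRF5 KO (log2 difference 3.30, standard error 0.27, edgeR adjusted p = 7.26e-07). Kit, the receptor for stem cell factor, was at 7.28, 7.31 and 6.29 CPM in WT and 15.7, 20.8 and 14.97 CPM in IRF5 KO (log2 difference 1.30, standard error 0.16, edgeR adjusted p = 4.52e-05). These were the 2 called of 7 tested mast cell and basophil genes, of which 6 had a negative fold change, with a median of -0.79. Hdc was added higher in IRF5 KO with only the 6 unstimulated libraries (log2 difference 1.87, edgeR adjusted p = 1.17e-04). It was also added without WT LPS defactinib replicate 3 (edgeR adjusted p = 0.0188). The mast cell proteases Mcpt4 and Tpsab1 had no count in the 6 libraries, and Fcer1a, Tpsb2, Cma1 and Il4 were under 0.1 CPM in every one, so that these effector genes were at or near 0 in both genotypes. The summed level of the list was 3.68 to 4.01 CPM per kb in WT and 10.9 to 12.1 CPM per kb in IRF5 KO.

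Progenitor genes gave calls in both directions as well. Gfi1b, a repressor of erythroid and megakaryocyte precursors, was at 9.04, 8.46 and 8.99 CPM in WT and 0.623, 0.539 and 0.885 CPM in IRF5 KO (log2 fold change 3.69, standard error 0.65, edgeR adjusted p = 9.60e-04). Cebpe, a factor of granulocyte maturation, was at 0.693, 0.778 and 0.474 CPM in WT and 7.65, 10.2 and 10.3 CPM in IRF5 KO (log2 difference 3.84, standard error 0.45, edgeR adjusted p = 2.29e-05). Sox4 was called beside Gfi1b on the WT side without IRF5 KO LPS DMSO replicate 3 (log2 fold change 1.15, edgeR adjusted p = 3.06e-05), and in the same fit Gfi1 was added on the IRF5 KO side (log2 difference 1.83, edgeR adjusted p = 0.00639). Cd34 was at 3.89, 3.82 and 2.701 CPM in WT and 16.3, 24.1 and 16.6 CPM in IRF5 KO (log2 difference 2.45, standard error 0.56, edgeR adjusted p = 0.00702). Summed levels of the 8 genes were 9.33 to 9.83 CPM per kb in WT and 11.1 to 13.8 in IRF5 KO. Thy1, a surface glycoprotein of T cells and fibroblasts, was at 0.337, 0.372 and 0.639 CPM in WT and 6.53, 7.81 and 7.39 CPM in IRF5 KO (log2 difference 4.01, standard error 0.39, edgeR adjusted p = 4.20e-06), while the stromal genes Col3a1, Dcn and Lum and the T and B cell genes Cd3e and Ms4a1 were under 0.1 CPM in all 6 libraries. Of the 4 tested stromal genes only Thy1 was called, and 2 had a positive fold change. The stromal list summed to 1.40 to 1.49 CPM per kb in WT and 3.57 to 3.86 CPM per kb in IRF5 KO. No T, B or NK cell gene of the 4 tested was called. With only the 6 unstimulated libraries Pdgfrb was added higher in IRF5 KO (log2 difference 1.40, edgeR adjusted p = 0.0432). In the same fit Cd8a was added higher in WT (log2 fold change 1.85, edgeR adjusted p = 0.00871). Itga2b, the platelet integrin CD41, was at 0.992, 0.829 and 1.44 CPM in WT and 5.77, 10.3 and 6.02 CPM in IRF5 KO, and Hba-a2 had no count. The eosinophil genes had 1 call, Ccr3, below 1 CPM in all libraries, and no call with no filter, with a filter of 5 CPM in 3 libraries, with glmTreat or in 11 of the 18 fits with 1 library left out.

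Genes of the aryl hydrocarbon receptor (AhR), a ligand-activated factor that binds xenobiotics and indoles, were next. AhR pairs with ARNT and raises its own repressor Ahrr and the cytochromes Cyp1a1 and Cyp1b1. Of 12 genes of this list 3 were called, all higher in IRF5 KO, and they were these 3 direct targets, of which Cyp1b1 was known from earlier results. Cyp1a1 was low at 0.0749, 0.0846 and 0.0619 CPM in WT and 1.75, 1.46 and 1.49 CPM in IRF5 KO (log2 difference 4.35, standard error 0.49, edgeR adjusted p = 1.49e-05). Ahrr was at 37.1, 37.1 and 32.6 CPM in WT and 112, 100.1 and 109 CPM in IRF5 KO (log2 difference 1.59, standard error 0.20, edgeR adjusted p = 4.12e-05). The libraries of the genotypes were apart for these genes, as in 51.4% of all tested genes. Ahr and Arnt had log2 fold changes of 0.22 and -0.06, and Tiparp, another target, of -0.64, none of them called. Nqo1, which AhR shares with NRF2, was at 120.0 ± 10.6 CPM in WT and 105 ± 8.28 CPM in IRF5 KO (SD, n = 3; log2 fold change 0.20, standard error 0.17, edgeR adjusted p = 0.543).

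The 250 bases before the RefSeq start of each of these 3 targets (build GRCm38.p6) are printed because they moved together and the core of the AhR response element, GCGTG on either strand, can be looked up in them. Capitals mark the core. Cyp1b1 spans chr17:79715062-79715311 (minus strand) with 1 core, Cyp1a1 chr9:57697363-57697612 (plus strand) with 1, and Ahrr chr13:74292332-74292581 (minus strand) with 3.
Cyp1b1: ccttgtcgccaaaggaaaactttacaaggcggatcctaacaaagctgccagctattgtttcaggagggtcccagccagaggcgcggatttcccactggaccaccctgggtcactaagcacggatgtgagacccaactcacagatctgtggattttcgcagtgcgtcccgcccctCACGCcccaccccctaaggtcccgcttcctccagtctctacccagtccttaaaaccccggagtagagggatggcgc
Cyp1a1: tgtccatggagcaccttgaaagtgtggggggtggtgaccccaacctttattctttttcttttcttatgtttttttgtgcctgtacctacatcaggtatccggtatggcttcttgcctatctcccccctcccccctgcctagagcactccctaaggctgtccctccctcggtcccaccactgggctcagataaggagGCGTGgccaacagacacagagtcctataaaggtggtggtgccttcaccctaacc
Ahrr: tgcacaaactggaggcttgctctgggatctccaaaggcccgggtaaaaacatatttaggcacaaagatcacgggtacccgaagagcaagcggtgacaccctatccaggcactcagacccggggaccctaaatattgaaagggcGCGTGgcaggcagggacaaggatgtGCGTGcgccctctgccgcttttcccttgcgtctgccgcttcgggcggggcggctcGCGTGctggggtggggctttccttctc
The first base of the core lies 76 bases before the start in Cyp1b1, 54 in Cyp1a1 and 107, 82 and 27 in Ahrr. GCGTG was held by 44.6% of the 10663 promoters of tested genes that could be matched, by 30.4% of those of genes higher in IRF5 KO and by 38.0% of those of genes higher in WT, so that a match in this window is common.

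Alternative activation genes, which IL-4 raises in macrophages, were split between the genotypes. Of 18 tested, 4 were higher in WT and 4 higher in IRF5 KO. Retnla, the secreted protein RELMα, was at 0.131, 0.288 and 0.144 CPM in WT and 21.4, 24.7 and 18.9 CPM in IRF5 KO (log2 difference 6.81, standard error 1.14, edgeR adjusted p = 7.47e-04). It was near 0 in every WT library and clearly present in every IRF5 KO library. On the WT side were Chil3, Mrc1, Flt1 and Ccl17. Flt1, a receptor for VEGF, was at 78.9, 74.9 and 76.03 CPM in WT and 19.9, 19.1 and 22.1 CPM in IRF5 KO (log2 fold change 1.91, standard error 0.15, edgeR adjusted p = 3.93e-07). The gene with the highest level per length on the list was Ccl17, a chemokine of dendritic cells and alternatively activated macrophages, at 4161, 3901 and 4051 CPM in WT and 1933, 2191 and 1752 CPM in IRF5 KO (log2 fold change 1.04, standard error 0.14, edgeR adjusted p = 9.52e-05). It fell under the threshold without IRF5 KO unstimulated replicate 3 (log2 fold change of 0.97).

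Matrix and protease genes held the most calls of any list, 13 of 38, with 5 higher in WT and 8 higher in IRF5 KO. Mmp9, gelatinase B, was at 7.06, 7.56 and 9.46 CPM in WT and 90.8, 72.2 and 100.2 CPM in IRF5 KO (log2 difference 3.45, standard error 0.26, edgeR adjusted p = 3.30e-07). Thbs1, thrombospondin 1, was at 83.7, 85.2 and 55.5 CPM in WT and 447, 349 and 457 CPM in IRF5 KO (log2 difference 2.48, standard error 0.25, edgeR adjusted p = 6.07e-06). Gpnmb, a transmembrane glycoprotein of lysosome-rich macrophages, was at 996, 1007 and 1037 CPM in WT and 2838, 2264 and 2936 CPM in IRF5 KO (log2 difference 1.40, standard error 0.15, edgeR adjusted p = 7.10e-06). Mmp2, gelatinase A, and Mmp8 were higher in IRF5 KO too (log2 difference of Mmp2 1.79), whereas the inhibitors Timp1 and Timp2 were called higher in WT, with log2 fold changes of 1.38 and 1.13. Mmp12, macrophage elastase, was the most abundant protease of the list at 14917 ± 380.1 CPM in WT and 10777 ± 1729 CPM in IRF5 KO (SD, n = 3) and was not called (log2 fold change 0.47, standard error 0.13, edgeR adjusted p = 0.0246). Adhesion receptors were among the calls, with Vcam1 and Itga4 higher in WT (log2 fold changes 1.86 and 1.26) and Itgb7 higher in IRF5 KO (log2 difference 2.04).

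In the complement and coagulation list 3 of 26 genes were higher in WT and 5 higher in IRF5 KO. F5, coagulation factor V, was higher in IRF5 KO by 2.30 on the log2 scale, and Serpinb2, Thbs1 and C5ar1 were in the same direction. F3, tissue factor, and Cfb, factor B, were higher in WT beside F13a1, with log2 fold changes of 2.02 and 1.32, the Cfb call not being made without IRF5 KO unstimulated replicate 2 or WT unstimulated replicate 3 (edgeR adjusted p = 0.0724 and 0.0515). C1qb was at 197 ± 41.4 CPM in WT and 180.3 ± 4.44 CPM in IRF5 KO (SD, n = 3) and was not called (log2 fold change 0.13, standard error 0.19, edgeR adjusted p = 0.771).

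Receptors for chemokines and other chemoattractants were called in 1 direction, 6 of 20 higher in IRF5 KO and none higher in WT, with a median of -0.68. C5ar1, the receptor for the complement fragment C5a, was at 4.25, 4.18 and 2.25 CPM in WT and 54.6, 35.6 and 54.4 CPM in IRF5 KO (log2 difference 3.76, standard error 0.41, edgeR adjusted p = 1.36e-05). S1pr1, a receptor for sphingosine 1-phosphate, was at 0.281, 0.169 and 0.124 CPM in WT and 2.93, 1.87 and 2.52 CPM in IRF5 KO (log2 difference 3.65, standard error 0.61, edgeR adjusted p = 6.28e-04). For both, all IRF5 KO libraries were above all WT libraries. Cx3cr1, the fractalkine receptor, and Gpr183, the oxysterol receptor EBI2, were higher in IRF5 KO by 1.46 and 1.26 on the log2 scale. The Cx3cr1 call was not made without IRF5 KO unstimulated replicate 1, IRF5 KO unstimulated replicate 2, WT unstimulated replicate 1 or WT unstimulated replicate 3 (edgeR adjusted p = 0.0693, 0.125, 0.134 and 0.130), and that of Gpr183 not without WT unstimulated replicate 3 (edgeR adjusted p = 0.0661). The other calls were C5ar2 and Ccr3, both low. The count was 3 to 7 with 1 library left out in turn, 3 without IRF5 KO unstimulated replicate 1, WT unstimulated replicate 1 or WT unstimulated replicate 3, and 2 with a filter of 5 CPM in 3 libraries, the C5ar2 call not being made without IRF5 KO unstimulated replicate 1, IRF5 KO unstimulated replicate 3, WT unstimulated replicate 1, WT unstimulated replicate 2 or WT unstimulated replicate 3 (edgeR adjusted p = 0.0748, 0.0581, 0.0736, 0.0558 and 0.0837). The Ccr3 call was not made without any 1 of the 3 IRF5 KO unstimulated libraries, WT unstimulated replicate 1 or 2, any 1 of the 3 IRF5 KO LPS defactinib or any 1 of the 3 WT LPS DMSO libraries (edgeR adjusted p = 0.0623 to 0.192 over these 11 fits), nor with no filter (adjusted p = 0.0633). Ccr1, at 228 ± 13.4 CPM in WT and 294 ± 39.98 CPM in IRF5 KO (SD, n = 3), was not called (log2 difference 0.37, standard error 0.41, edgeR adjusted p = 0.665).

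Toll-like receptors (TLRs) and their adaptors carry the signal that activates IRF5. Of 33 genes of this list 3 were called, 9.09% against 7.31% of all tested genes. Tlr11, which recognises profilin and flagellin, was at 9.55, 10.9 and 10.2 CPM in WT and 1.36, 1.35 and 1.003 CPM in IRF5 KO (log2 fold change 3.04, standard error 0.42, edgeR adjusted p = 1.03e-04). Tlr1, which pairs with TLR2 for lipopeptides, was at 2.55, 2.38 and 2.56 CPM in WT and 19.04, 15.99 and 19.3 CPM in IRF5 KO (log2 difference 2.86, standard error 0.51, edgeR adjusted p = 0.00114), and Tlr8 was at 14.2 ± 2.07 and 34.8 ± 5.81 CPM (SD, n = 3; log2 difference 1.29, standard error 0.21, edgeR adjusted p = 4.45e-04). Of the LPS receptor, Tlr4 and Ly96 had log2 fold changes of -0.23 and -0.05, and Cd14 of -0.76, none of them called. Myd88 was at 189.9 ± 7.64 CPM in WT and 181 ± 5.06 CPM in IRF5 KO (SD, n = 3; log2 fold change 0.07, standard error 0.16, edgeR adjusted p = 0.871).

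C-type lectin and scavenger receptors leaned to WT, with 6 of 30 called higher in WT, 2 higher in IRF5 KO and a median of 0.50. Beside Marco and Mrc1 these were Cd209d, Cd5l, Havcr2 and Clec7a. Clec7a, which encodes the β-glucan receptor dectin-1, was at 2383, 2319 and 2410.1 CPM in WT and 1314, 970.2 and 1245 CPM in IRF5 KO (log2 fold change 1.01, standard error 0.20, edgeR adjusted p = 0.00239). It lay at the threshold and was not called without IRF5 KO unstimulated replicate 2 or WT unstimulated replicate 3 (log2 fold change of 0.89 and 1.00). Cd36, a receptor for oxidised lipids, was at 3028 ± 88.7 CPM in WT and 1737 ± 104 CPM in IRF5 KO (SD, n = 3; log2 fold change 0.80, standard error 0.15, edgeR adjusted p = 0.00137), under the fold change threshold. Clec4d and Stab1 were called higher in IRF5 KO. Clec4d was under the threshold without IRF5 KO unstimulated replicate 1, IRF5 KO unstimulated replicate 3 or WT unstimulated replicate 2 (log2 difference of 0.91, 0.99 and 0.99), and Havcr2 was under it without IRF5 KO unstimulated replicate 1 or IRF5 KO unstimulated replicate 3 (log2 fold change of 0.98 and 0.92). The count higher in WT was 8 with DESeq2, with DESeq2's size factors or with the replicate number as a block. Clec4a3 and Clec4b1, which lie at the threshold, were added there (log2 fold change of 1.01 for both with DESeq2). It was 9 with only the 6 unstimulated libraries, Cd209a being added too, and 4 with library size alone.

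Fc, TREM and paired receptors leaned the other way, 6 of 30 higher in IRF5 KO and 1 higher in WT, the latter Pira2. With library size alone Pira2 was under the threshold (log2 fold change of 0.98). On the WT side Siglec1 was added without any 1 of the 3 WT LPS defactinib libraries, and Cd200r4 without IRF5 KO unstimulated replicate 1. Treml2, a receptor of the TREM family, was at 34.9, 38.2 and 38.02 CPM in WT and 212, 271 and 213 CPM in IRF5 KO (log2 difference 2.65, standard error 0.25, edgeR adjusted p = 3.11e-06). Cd300ld was at 11.3, 11.1 and 10.2 CPM in WT and 39.3, 32.8 and 39.1 CPM in IRF5 KO (log2 difference 1.77, standard error 0.12, edgeR adjusted p = 1.12e-07). Siglece, an inhibitory receptor for sialic acid, was at 2.72 ± 0.307 CPM in WT and 9.95 ± 1.35 CPM in IRF5 KO (SD, n = 3; log2 difference 1.87, standard error 0.40, edgeR adjusted p = 0.00418). Pilrb1, Pilrb2 and Treml4 were the others. Pilrb and Pira genes are families of similar sequence, so that their counts are uncertain. The shared signalling chains Tyrobp and Fcer1g were at 254 ± 6.63 and 287 ± 9.42 CPM in WT and 263 ± 42.9 and 238 ± 42.1 CPM in IRF5 KO (SD, n = 3), neither called.

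The MHC class II list had 2 calls among 21 genes. H2-DMb1, a chaperone that loads peptides, was at 461, 472 and 461 CPM in WT and 212, 184 and 223 CPM in IRF5 KO (log2 fold change 1.17, standard error 0.14, edgeR adjusted p = 3.69e-05). H2-Oa, which restrains that chaperone, was at 6.48, 5.903 and 6.72 CPM in WT and 11.8, 16.2 and 13.2 CPM in IRF5 KO (log2 difference 1.11, standard error 0.19, edgeR adjusted p = 8.16e-04), and was under the threshold without IRF5 KO unstimulated replicate 2 (log2 difference of 0.97). Cd74, the invariant chain, was among the most abundant genes in both genotypes at 9852 ± 395 and 7710.4 ± 799 CPM (SD, n = 3; log2 fold change 0.35, standard error 0.17, edgeR adjusted p = 0.206).

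In the IRF family 0 of 9 genes were called, and 1, Irf5, passed the false discovery rate alone. Irf4, which GM-CSF and IL-4 raise, was at 505, 507 and 523 CPM in WT and 311, 353 and 307 CPM in IRF5 KO, groups that did not overlap, with a log2 fold change of 0.66 that was not called in the shared fit (standard error 0.42, edgeR adjusted p = 0.362). Irf8 had a log2 fold change of -1.52 and was not called (standard error 0.65, edgeR adjusted p = 0.143). It was called with only the 6 unstimulated libraries (log2 fold change -1.51, edgeR adjusted p = 1.25e-07) and without WT LPS defactinib replicate 3 (edgeR adjusted p = 0.0285).

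Antiviral interferon-stimulated genes had overlapping summed levels before LPS, 938 to 1095 CPM per kb in WT and 1024 to 1129 CPM per kb in IRF5 KO. Of 51 genes, 1 was called, Ifitm3, higher in IRF5 KO (DESeq2 gave it no adjusted p), while the median of 0.34 and 40 positive fold changes leaned to WT. This count depended on the libraries in the fit. With only the 6 unstimulated libraries, 9 further genes were called, all higher in WT: Ifit1, Ifit2, Isg15, Oas1g, Oasl1, Rsad2, Ifi44, Rtp4 and Iigp1. Isg15, a ubiquitin-like modifier, was at 24.2, 24.2 and 34.5 CPM in WT and 11.8, 11.4 and 10.01 CPM in IRF5 KO, with a log2 fold change of 1.33 (edgeR adjusted p = 0.000147) in the fit of 6 libraries and an adjusted p of 0.105 in the fit of 18. Ifit1, which binds viral RNA, was at 14.98, 14.3 and 17.4 CPM in WT and 5.92, 5.87 and 5.64 CPM in IRF5 KO, with a log2 fold change of 1.43 (edgeR adjusted p = 1.15e-06) in the fit of 6 and an adjusted p of 0.488 in the fit of 18. The shared fit takes the spread from all 6 groups, and leaving out IRF5 KO LPS DMSO replicate 3 raised the count over all genes from 1145 to 1376. Without that library the count of genes higher in WT was 2 of 51, as it was without the whole group or without WT LPS defactinib replicate 3. After LPS with DMSO, 46 of these 51 genes were higher in WT, both with and without that library, against 14% of all tested genes. The difference between the resting and the LPS fold change passed a false discovery rate of 0.05 in 15 of the 51, against 17.1% of all tested genes. After LPS with defactinib 22 of the 51 were higher in WT, 30 without that library, and 0 higher in IRF5 KO. Of all tested genes 17.3% were called there in either direction. The difference from the resting fold change passed in 1 of the 51, against 15.2% of all tested genes.

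Cytokine genes gave 2 calls in each direction among 29. Inhba, the activin A subunit, was the highest called cytokine at 244, 249 and 276 CPM in WT and 56.7, 48.3 and 57.8 CPM in IRF5 KO (log2 fold change 2.24, standard error 0.61, edgeR adjusted p = 0.0210), and this call was not made without IRF5 KO unstimulated replicate 1, IRF5 KO unstimulated replicate 2, IRF5 KO unstimulated replicate 3 or WT unstimulated replicate 3 (edgeR adjusted p = 0.0695, 0.0888, 0.0682 and 0.0582). Lif, a cytokine of the IL-6 family, was at 0.730, 0.507 and 0.742 CPM in WT and 4.32, 5.14 and 3.697 CPM in IRF5 KO (log2 difference 2.73, standard error 0.40, edgeR adjusted p = 2.11e-04). Tnf, an inflammatory cytokine, was at 94.1, 94.5 and 133 CPM in WT and 58.3, 55.9 and 59.4 CPM in IRF5 KO (log2 fold change 0.89, standard error 0.24, edgeR adjusted p = 0.0203), under the 2-fold threshold, with WT replicate 3 the highest. With 1 library left out in turn, the calls numbered 1 to 4 on either side, and 4 on each without IRF5 KO LPS DMSO replicate 3. Il1b, Il6 and Il12b had log2 fold changes of 0.51, -1.91 and -0.79 and were not called, though Il6 was called with only the 6 unstimulated libraries (log2 fold change -1.91, edgeR adjusted p = 0.00466). Of the 18 genes of the inflammatory activation list 2 were called, Cd38 and the low Ido1, both higher in IRF5 KO. The Ido1 call was not made without IRF5 KO unstimulated replicate 2 or WT unstimulated replicate 3 (edgeR adjusted p = 0.0942 and 0.0806).

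Chemokine ligands had 3 calls higher in WT and 1 higher in IRF5 KO among 23. Ccl3, a chemoattractant for monocytes, was at 641, 639 and 796 CPM in WT and 212, 198 and 205 CPM in IRF5 KO (log2 fold change 1.76, standard error 0.26, edgeR adjusted p = 2.31e-04). Ccl4, its neighbour on chromosome 11, was at 225, 219.9 and 285 CPM in WT and 93.6, 69.7 and 82.1 CPM in IRF5 KO (log2 fold change 1.57, standard error 0.23, edgeR adjusted p = 1.71e-04). Ccl17 was the other, and Ccl24 was low and higher in IRF5 KO. Ccl22 and Ccl6, at 2916 ± 267 and 3362 ± 201 CPM in WT and 2777 ± 444 and 4313 ± 621 CPM in IRF5 KO (SD, n = 3), were not called.

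Immediate-early genes, which are induced within minutes of a stimulus, were called only in the WT direction, 4 of 28, with a median of 0.39. Dusp1, a phosphatase of MAP kinases, was at 40.4, 41.4 and 53.7 CPM in WT and 15.5, 15.7 and 18.2 CPM in IRF5 KO (log2 fold change 1.46, standard error 0.33, edgeR adjusted p = 0.00711). Fosl1, a subunit of AP-1, was at 5.73, 6.26 and 8.64 CPM in WT and 2.18, 1.75 and 2.05 CPM in IRF5 KO (log2 fold change 1.78, standard error 0.43, edgeR adjusted p = 0.00937), and Dusp2 and Klf4 were the others. Fos and Jun had log2 fold changes of -0.28 and -0.16 and were not called. Egr1 was added higher in WT with only the 6 unstimulated libraries (log2 fold change 1.58, edgeR adjusted p = 8.05e-05). It was also added without IRF5 KO LPS DMSO replicate 3 (edgeR adjusted p = 9.34e-06). WT replicate 3 was the highest library for Dusp1, Dusp2 and Fosl1, and it was the highest for the epidermal growth factor ligands Areg and Ereg. Areg was at 2.42, 2.47 and 3.98 CPM in WT and 0.171, 0.154 and 0.354 CPM in IRF5 KO (log2 fold change 3.71, standard error 0.45, edgeR adjusted p = 3.36e-05). Hbegf, of the same ligand family, had a log2 fold change of 1.61 (standard error 0.30, edgeR adjusted p = 0.00168).

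Of the 22 colony-stimulating and growth factor genes and receptors, 4 were higher in WT and 3 higher in IRF5 KO. The common β chain of the GM-CSF receptor, Csf2rb, was at 2112, 2171 and 2232 CPM in WT and 3355, 3044 and 3492 CPM in IRF5 KO (log2 fold change -0.60, standard error 0.17, edgeR adjusted p = 0.0259), under the fold change threshold. Its close relative Csf2rb2 was at -0.58 (standard error 0.14, edgeR adjusted p = 0.00764), and reads that fit both genes were not counted. The α chain Csf2ra had a log2 fold change of 0.74 (standard error 0.19, edgeR adjusted p = 0.0151) in the other direction. Igf1r, the receptor for insulin-like growth factor 1, was at 5.898, 5.801 and 5.03 CPM in WT and 21.9, 13.1 and 23.6 CPM in IRF5 KO (log2 difference 1.81, standard error 0.19, edgeR adjusted p = 7.12e-06).

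Cholesterol synthesis genes differed little in size but in the same direction. All 20 had a positive fold change, from 0.27 to 1.03 on the log2 scale with a median of 0.74, and 16 passed the false discovery rate alone, against 7.93% of all tested genes in this direction. Only Fdps, farnesyl diphosphate synthase, passed the fold change threshold too, at 5.71, 6.48 and 5.94 CPM in WT and 2.85, 3.31 and 2.69 CPM in IRF5 KO (log2 fold change 1.03, standard error 0.20, edgeR adjusted p = 0.00219), and it was under it without IRF5 KO unstimulated replicate 3 or WT unstimulated replicate 2 (log2 fold change of 0.97 and 0.98). Hmgcs1, which makes HMG-CoA, was at 262, 257 and 259 CPM in WT and 128, 141 and 127 CPM in IRF5 KO (log2 fold change 0.97, standard error 0.28, edgeR adjusted p = 0.0285). Sqle, squalene epoxidase, had a log2 fold change of 0.97. The summed level was 581 to 592 CPM per kb in WT and 357 to 378 CPM per kb in IRF5 KO, without overlap.

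In the list of LXR and PPAR targets and lipid handling, 3 of 25 were higher in WT (Fabp4, Pparg and Nr1h3) and 1, the low Pdk4, higher in IRF5 KO. With only the 6 unstimulated libraries 5 were higher in WT, Angptl4 and Ch25h being added, and without IRF5 KO LPS DMSO replicate 3 Ch25h was added. Without IRF5 KO unstimulated replicate 2 Apoe was added on the IRF5 KO side (log2 difference of 1.21). Lpl, lipoprotein lipase, was at 7071 ± 266 CPM in WT and 6275 ± 888 CPM in IRF5 KO (SD, n = 3; log2 fold change 0.17, standard error 0.12, edgeR adjusted p = 0.402). Of 35 lysosomal genes Ctsk was higher in WT, and Gpnmb and Ctsl were higher in IRF5 KO. Ctsl, cathepsin L, was at 148, 151 and 129.8 CPM in WT and 608, 428 and 524 CPM in IRF5 KO (log2 difference 1.86, standard error 0.13, edgeR adjusted p = 1.90e-07), the reverse of the cathepsin K result above.

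Of 28 glycolysis and hypoxia genes, Pfkl and Hif1a were called, both higher in IRF5 KO. Pfkl, the liver-type phosphofructokinase, was at 37.1, 37.8 and 39.9 CPM in WT and 129, 108 and 140.2 CPM in IRF5 KO (log2 difference 1.72, standard error 0.13, edgeR adjusted p = 3.07e-07). Hif1a, the oxygen-regulated factor, was at 169, 165 and 153 CPM in WT and 338, 331 and 317 CPM in IRF5 KO (log2 difference 1.02, standard error 0.18, edgeR adjusted p = 8.90e-04), and was under the threshold without IRF5 KO unstimulated replicate 1 or WT unstimulated replicate 3 (log2 difference of 0.99 and 0.97). Pkm and Aldoa, the most abundant of the list per length, had log2 fold changes of 0.18 and 0.05. The NRF2 list had 1 call among 18, Srxn1, and the heat shock and unfolded protein response list 1 among 26, Chac1, both higher in WT. Chac1, which degrades glutathione, was at 1.98, 2.47 and 2.58 CPM in WT and 0.530, 0.539 and 0.393 CPM in IRF5 KO (log2 fold change 2.26, standard error 0.32, edgeR adjusted p = 1.39e-04). Srxn1, which repairs peroxiredoxins, was at 688 ± 39.3 CPM in WT and 309 ± 26.8 CPM in IRF5 KO (SD, n = 3), and its call was not made without IRF5 KO unstimulated replicate 1, IRF5 KO unstimulated replicate 2, IRF5 KO unstimulated replicate 3, WT unstimulated replicate 2 or WT unstimulated replicate 3 (edgeR adjusted p = 0.0583, 0.0902, 0.0593, 0.0514 and 0.0684). Me1 was added to the NRF2 calls without IRF5 KO unstimulated replicate 1 or WT unstimulated replicate 1, and Adm to those of the hypoxia list, higher in WT, without IRF5 KO unstimulated replicate 1.

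Cell cycle and DNA replication genes leaned to IRF5 KO. Of 40, 38 had a negative fold change, with a median of -0.66, and 14 passed the false discovery rate alone in this direction, against 1, Pcna, in the other. Over all tested genes these shares were 7.37% and 7.93%. Passing the fold change threshold too were 2, Cdc6 and Hmgb2. With library size alone as the scaling, which moved the median of all tested genes to -0.12, there were 5, Top2a, Kif11 and Mcm2 being added, and with 1 library left out in turn 1 to 3. Cdc6, which licenses origins of replication, was at 4.700, 4.46 and 3.71 CPM in WT and 9.32, 10.97 and 8.496 CPM in IRF5 KO (log2 difference 1.16, standard error 0.26, edgeR adjusted p = 0.00667). Hmgb2, a chromatin protein of dividing cells, was at 31.3, 27.7 and 23.1 CPM in WT and 53.2, 68.3 and 46.8 CPM in IRF5 KO (log2 difference 1.03, standard error 0.20, edgeR adjusted p = 0.00197) and was under the threshold without IRF5 KO unstimulated replicate 2 or WT unstimulated replicate 3 (log2 difference of 0.87 and 0.93). IRF5 KO replicate 2 was the highest library for both. Mki67 had a log2 difference of 0.64 (standard error 0.19, edgeR adjusted p = 0.0347).

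**Figure D4:**
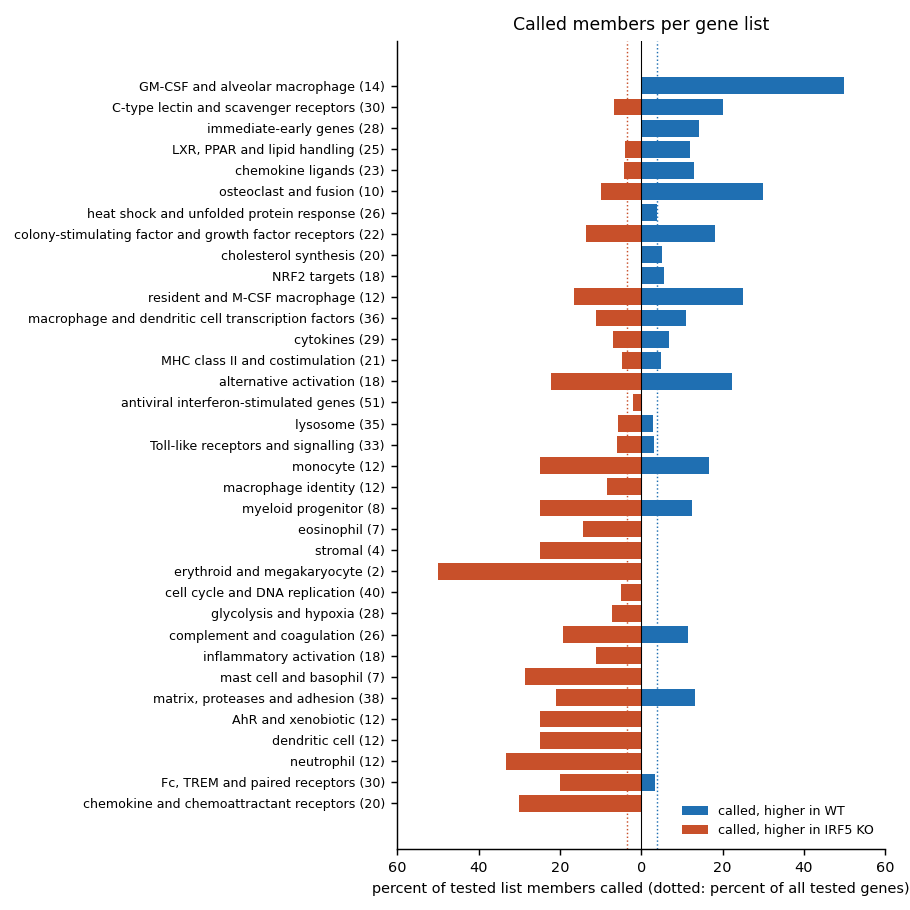
Share of the tested members of each gene list called higher in WT unstimulated (right) or higher in IRF5 KO unstimulated (left), in percent, with the number tested in parentheses and the shares of all tested genes as dotted lines. The GM-CSF and alveolar macrophage list reaches 50% on the WT side, and the neutrophil and the chemoattractant receptor lists 33.3% and 30% on the IRF5 KO side.

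A targeted locus carries flanking DNA of the strain in which it was made, so the genes near Irf5 were described. Within 10 Mb of its start, 98 genes were tested and 10 called, 10.2% against 8.8% on the rest of chromosome 6 and 7.31% of all tested genes. With a window of 5 Mb 6 of 60 were called, and with 20 Mb 30 of 187 (16%). Tspan33, a tetraspanin that starts at 29694222, was at 5.805, 5.94 and 6.35 CPM in WT and 14.1, 21.2 and 14.2 CPM in IRF5 KO (log2 difference 1.45, standard error 0.20, edgeR adjusted p = 1.39e-04). Mest, an imprinted hydrolase, was at 1.14, 0.896 and 1.18 CPM in WT and 0.0156, 0.0770 and 0.0393 CPM in IRF5 KO (log2 fold change 4.57, standard error 0.46, edgeR adjusted p = 5.11e-06). Mtpn, myotrophin, was the most abundant of these genes at 1984, 1941 and 1955 CPM in WT and 787, 712 and 734 CPM in IRF5 KO (log2 fold change 1.40, standard error 0.14, edgeR adjusted p = 4.61e-06). Klrg2 and Clec2l, lectin-like genes that lie close to each other, were higher in WT by 2.35 and 3.34 on the log2 scale. Plxna4 and its antisense transcript Plxna4os1 were both low and higher in IRF5 KO, by 1.39 and 2.51. The calls of Tmem229a, Cald1, Plxna4 and the unnamed ENSMUSG00000084894 were lost in some fits with 1 library left out. Without IRF5 KO unstimulated replicate 2 or WT unstimulated replicate 2 all 4 were lost (edgeR adjusted p = 0.0713 to 0.208). The part of flanking DNA in these values was not tested.

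Promoters of the called genes were searched for 5 further short motifs on both strands in the 250 bases before the start. An IRF type motif, GAAANNGAA, was held by 40 of 391 promoters of genes higher in IRF5 KO (10.2%), by 18 of 408 of genes higher in WT (4.41%) and by 6.58% of all 10663. The AP-1 type motif TGANTCA was held by 7.6% of the WT side, 5.63% of the IRF5 KO side and 4.4% of all. In the same order, the PU.1 type motif GAGGAAGT had shares of 3.19%, 4.86% and 2.83%. These are descriptions of letters and not of bound sites. Among the 24 genes with the largest differences, 23 had a promoter in the table and 4 held GAAANNGAA, which are printed with the motif in capitals to show where it lies.
Asb2: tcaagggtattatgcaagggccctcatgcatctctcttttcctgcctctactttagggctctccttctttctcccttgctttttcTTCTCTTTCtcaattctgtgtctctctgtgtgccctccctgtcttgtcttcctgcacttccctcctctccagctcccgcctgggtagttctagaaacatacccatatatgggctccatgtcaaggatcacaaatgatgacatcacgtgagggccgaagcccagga
C5ar1: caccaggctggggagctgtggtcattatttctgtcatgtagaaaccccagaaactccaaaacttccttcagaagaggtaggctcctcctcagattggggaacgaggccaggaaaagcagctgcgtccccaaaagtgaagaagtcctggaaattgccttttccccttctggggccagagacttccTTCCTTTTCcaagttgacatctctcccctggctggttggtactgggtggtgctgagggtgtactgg
Ear2: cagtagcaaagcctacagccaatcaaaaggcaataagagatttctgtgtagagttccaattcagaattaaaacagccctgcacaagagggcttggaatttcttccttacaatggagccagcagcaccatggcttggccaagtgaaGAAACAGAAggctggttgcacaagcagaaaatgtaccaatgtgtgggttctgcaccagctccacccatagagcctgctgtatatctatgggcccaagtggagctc
Tnc: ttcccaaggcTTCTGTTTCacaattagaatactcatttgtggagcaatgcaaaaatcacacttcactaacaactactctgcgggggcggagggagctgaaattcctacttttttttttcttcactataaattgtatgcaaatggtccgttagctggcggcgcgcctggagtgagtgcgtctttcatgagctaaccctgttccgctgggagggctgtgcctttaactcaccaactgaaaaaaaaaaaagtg
These windows are chr12:103356002-103356251 (minus strand) for Asb2, chr7:16259339-16259588 (minus strand) for C5ar1, chr14:44102404-44102653 (plus strand) for Ear2 and chr4:64047016-64047265 (minus strand) for Tnc, and the first base of the motif lies 165, 66, 105 and 240 bases before the start. Asb2 and C5ar1 were higher in IRF5 KO, and Ear2 and Tnc were higher in WT. The GATA type motif AGATAA was held by 8.09% of the WT side, 8.7% of the IRF5 KO side and 6.03% of all promoters.

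The last of the motifs, the E-box CACGTG, was held by 5.39% of the promoters of genes higher in WT, by 5.63% of those of genes higher in IRF5 KO and by 8.24% of all.

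The resting differences were then looked up in the libraries taken after LPS, which had entered the resting test only through the shared filter, scaling and estimate of spread. After LPS with DMSO, 25.8% of all tested genes were called between the genotypes, and after LPS with defactinib 17.3%. Of the 1145 resting genes, 763 were called in the same direction after LPS with DMSO (66.6% of the resting genes and 18.9% of the genes called after LPS) and 18 in the opposite one. After LPS with defactinib 687 were called in the same direction (60% and 25.3%) and 20 in the opposite one. In all 3 comparisons 511 genes were called the same way, 319 higher in WT and 192 higher in IRF5 KO, and 183 were called at rest alone. Without IRF5 KO LPS DMSO replicate 3 the counts were 743 and 39 after LPS with DMSO and 706 and 20 after LPS with defactinib. Over the 1145 genes Pearson's r between the resting and the LPS log2 fold change was 0.84 with DMSO, 0.79 without that library, and 0.82 with defactinib, a description across genes, which are not independent replicates. These genes were chosen by their resting fold change, which leaves out small values and can raise r. Whether the LPS libraries share donors with the resting ones is not given.

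Of the 24 genes with the largest resting differences, 19 were called the same way after LPS with DMSO and 22 after LPS with defactinib. F13a1 had log2 fold changes of 5.61 and 6.30 in these comparisons, Spns2 of 4.43 and 5.72, and Cyp1b1 of -5.01 and -5.59. C5ar1 had -0.33 after LPS with DMSO and -4.27 after LPS with defactinib, and Serpinb2 -0.17 and -3.77. Ifitm3 had -0.77 and -0.89, and Sall2 had 0.03 and 2.80. In the GM-CSF and alveolar macrophage list 9 of 14 genes were higher in WT after LPS with DMSO and 9 with defactinib, 7 and 9 without IRF5 KO LPS DMSO replicate 3, and none was higher in IRF5 KO. Pparg had log2 fold changes of 0.70 and 1.11, Marco of 2.95 and 2.77, and Adgre1 of -2.58 and -1.35. Each of these 3 genes had the sign of its resting value.

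**Figure D5:**
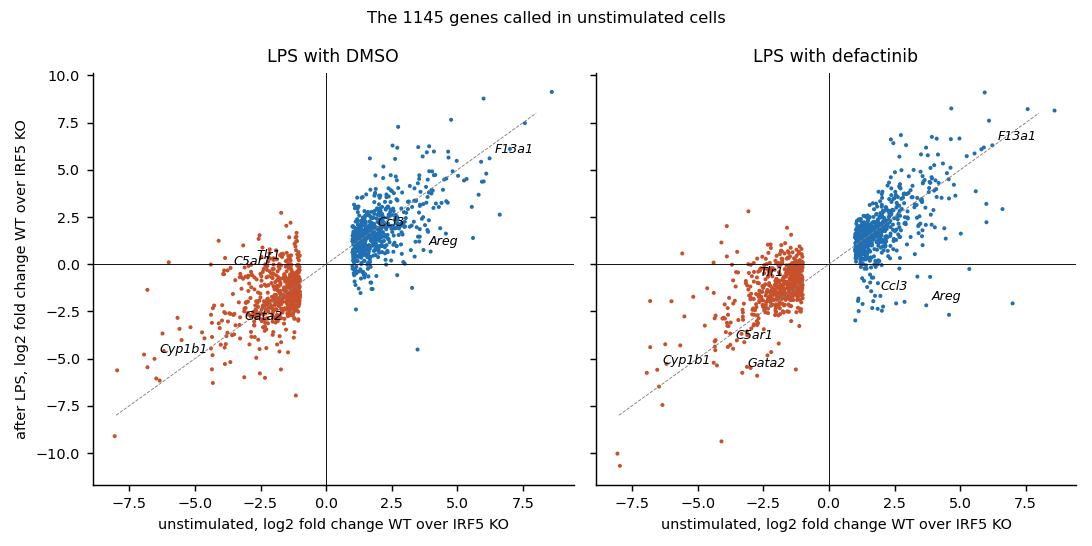
Log2 fold change of WT over IRF5 KO in unstimulated cells (x axis) and after LPS (y axis) with DMSO (left) or defactinib (right) for the 1145 genes called at rest, blue where higher in WT and orange where higher in IRF5 KO, with the diagonal dashed. Most points lie in the lower left and upper right, and Areg and Ccl3 are among the few on the WT side that lie below 0 with defactinib.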

How the data were processed

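RNA-seq was carried out on 18 libraries of BMDMs in 6 groups of 3. The authors aligned reads to mm10 with STAR and counted uniquely mapped read pairs over the exons of each Ensembl gene with featureCounts 1.6.3, reverse stranded. The deposited values are raw counts, with replicates not pooled.

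Counts were tested with edgeR 4.0.16 (limma 3.58.1, R 4.3.3): TMM scaling, its filter on low counts, and a robust quasi-likelihood F-test of 1 model of 6 group means with 12 residual degrees of freedom. Genes were called at a Benjamini-Hochberg adjusted p under 0.05 over all tested genes and a fold change beyond 2, two-sided. Standard errors were taken from the F statistic. Depth was 42214839 to 55262814 counted pairs per unstimulated library. Counts were also simulated with each gene at 1 level in all groups, apart from genes changed between the unstimulated groups. Recovery was scored by an adjusted p under 0.05 and direction, without the fold change threshold. It was 45.3% of 95 genes changed 2-fold and 81.6% of 98 changed 4-fold, with 6 false calls by adjusted p alone. Promoters of 10663 tested genes were matched by symbol in RefSeq (GRCm38.p6).

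Named by rule were Irf5, Dock2, Nnt, the sex chromosome list, the 12 called genes that differed most in each direction where log2 CPM averaged 3 or more and the groups were apart, up to 4 called genes and the 2 highest per length of each list, and the called genes within 10 Mb of Irf5. Further list members were named for their known roles, after their values were seen, and some named by the rule are not reported here. Members and lists were chosen with earlier results of these data known. Alternatives were other scalings, filters and tests (DESeq2 1.42.0, limma-voom, glmTreat), a replicate block, the 6 unstimulated libraries alone and each library left out.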

Additional observations from a re-analysis of the deposited data

Results flagged for a closer look

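Of the 1145 resting genes, 20 were called in the opposite direction after LPS with defactinib, and 7 of these were among the genes of the lists. In each the genotype difference at rest differed from that after LPS with defactinib by edgeR's test of the difference itself (an interaction term over libraries that the comparisons do not share), which 15.2% of all tested genes passed. Since these genes were chosen for opposite calls in the same 2 comparisons, passing was close to fixed by the choice, and the differences are given as a description. Areg, a ligand of the epidermal growth factor receptor, had a log2 fold change of WT over IRF5 KO of 3.71 at rest and -2.18 after LPS with defactinib, a difference of 5.885. Ereg, of the same ligand family, went from 2.88 to -1.99, a difference of 4.873, and Hbegf from 1.61 to -1.43, a difference of 3.041. Tissue factor, F3, went from 2.02 to -2.47, a difference of 4.482. Sdc4, a heparan sulfate proteoglycan, differed by 3.972, the chemokine Ccl3 by 3.431 and the phosphatase Dusp1 by 2.667. The resting call of Ereg was not made without IRF5 KO unstimulated replicate 1, IRF5 KO unstimulated replicate 2, IRF5 KO LPS DMSO replicate 3 or WT unstimulated replicate 3 (edgeR adjusted p = 0.0622, 0.0601, 0.0598 and 0.0826), nor without the whole IRF5 KO LPS DMSO group (edgeR adjusted p = 0.0588) or with limma-voom (adjusted p = 0.233).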

How the results depend on the processing

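The count of 1145 genes was 1149 with DESeq2's size factors, 1158 with library size alone, 1057 with no filter, 1223 with DESeq2, 1183 with limma-voom and 1397 with only the 6 unstimulated libraries. It was 598 (301 higher in WT, 297 higher in IRF5 KO) with a filter of 5 CPM in 3 libraries, which tests fewer genes, 2396 (1242 and 1154) with no fold change threshold and 355 (189 and 166) with glmTreat, which tests against the fold change. With library size alone the median of all tested genes moved from -0.01 to -0.12 and the split became 504 and 654. With 1 library left out in turn the count was 886 (without WT unstimulated replicate 3) to 1376 (without IRF5 KO LPS DMSO replicate 3), with 462 to 727 higher in WT and 424 to 649 higher in IRF5 KO. Without the whole IRF5 KO LPS DMSO group, an alternative added after seeing the data, it was 1334.

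With the replicate number as a block the count was 1119 (586 and 533). Same-numbered WT and IRF5 KO libraries deviated together with r of 0.0641, 0.0334 and 0.0624, and the labels do not say that a number marks a shared culture, so the libraries were taken as unpaired. Under the block 110 of the 112 called genes named by the rule remained, and the calls of Tmem229a and Cald1 near Irf5 did not (edgeR adjusted p = 0.0565 and 0.0615).

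At these depths the 277 called genes under 1 CPM in both genotypes rest on few counts. Of the 112 called genes named by the rule, 89 were tested with the filter of 5 CPM, 107 with only the 6 unstimulated libraries and 111 without the IRF5 KO LPS DMSO group, and 109 had an adjusted p with DESeq2, which gave none to Ifitm3, Retnla and Sall2. None changed sign where it was tested, but calls were lost. With glmTreat 66 remained and 46 did not, among them Pparg, Nr1h3, Klf4, Mrc1, Fn1, Maf, Dcstamp, Ccl17, Ccl4, Dusp1 and Kit. With 1 library left out in turn 98 to 112 remained, with no filter 105, with library size alone 107 and with limma-voom 110.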
